A study of Mus musculus with 8 samples.

Results

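The 35 genes described here encode the proteins that hold epithelial cells to each other: 10 claudins, 6 other tight junction membrane proteins, 3 tight junction plaque proteins, 3 classical cadherins, 3 catenins, 5 desmosome proteins, 3 polarity proteins and 2 connexins. They were taken by gene symbol from a written list of junction genes, with no threshold on their values. The list was chosen with earlier results of these data known, so its counts and medians below are not independent of those results. All 35 were found among the 48709 genes measured in each of 8 mouse pancreas RNA-Seq libraries. The study asked how loss of Pfkfb3, which encodes an enzyme that makes a regulator of glycolysis, alters severe acute pancreatitis. All mice were 8 week old males. The 4 groups held 2 libraries each, labelled as biological replicates: wild-type mice given saline (WT saline), PFKFB3 cKO mice given saline (cKO saline), wild-type mice given POA and ethanol (WT FAEE-SAP), and cKO mice given POA and ethanol (cKO FAEE-SAP), all sampled 24 h after induction. POA is palmitoleic acid, a fatty acid that the pancreas joins to ethanol into a fatty acid ethyl ester, hence the name FAEE-SAP for this model of severe acute pancreatitis. Per the study's methods, mice were fasted beforehand, and the FAEE-SAP injections came with saline and the pain reliever buprenorphine. The cKO mice carried Pfkfb3 fl/fl and Pdx1-Cre, whose promoter is active in the cells that form the acini, ducts and islets. The wild-type mice were bought from a supplier and carried neither allele, so genotype, Cre and colony cannot be told apart.

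Tight junctions seal the space between epithelial cells near the lumen. Claudins form their strands and set which ions pass between cells, while plaque proteins such as ZO-1 tie the strands to actin. Below them, adherens junctions join cells through E-cadherin and the catenins, desmosomes anchor the keratin filaments, and connexins form gap junction channels that let ions and small molecules pass from cell to cell. In the exocrine pancreas these junctions keep secreted enzymes inside the lumen of acini and ducts, and acinar cells are coupled by connexins 32 and 26.

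The promoters of 4 genes that were higher in WT FAEE-SAP than in WT saline are shown so that the start regions of genes that moved together can be compared. RefSeq promoter windows of GRCm38.p6, running from 250 bases before to 50 bases after a start and 300 bases long, were found for 24 of the 35 genes, 38 windows in all. Capitals mark 2 kinds of motif read on both strands: the AP-1 core, TGACTCA or its reverse complement TGAGTCA, and the E-box CACCTG, whose reverse complement CAGGTG is the same site. Each line runs 5′ to 3′ on the strand of the gene. Cldn3 lies on chromosome 5 at chr5:134985964-134986263, plus strand, Cldn4 at chr5:134946885-134947184, minus strand, Cldn7 at chr11:69965171-69965470, plus strand, and F11r at chr1:171437311-171437610, plus strand.
Cldn3: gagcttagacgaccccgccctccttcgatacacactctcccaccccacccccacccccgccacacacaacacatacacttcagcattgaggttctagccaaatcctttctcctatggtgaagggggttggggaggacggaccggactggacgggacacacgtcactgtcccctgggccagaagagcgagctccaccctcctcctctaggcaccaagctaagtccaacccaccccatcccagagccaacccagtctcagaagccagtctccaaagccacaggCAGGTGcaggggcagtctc
Cldn4: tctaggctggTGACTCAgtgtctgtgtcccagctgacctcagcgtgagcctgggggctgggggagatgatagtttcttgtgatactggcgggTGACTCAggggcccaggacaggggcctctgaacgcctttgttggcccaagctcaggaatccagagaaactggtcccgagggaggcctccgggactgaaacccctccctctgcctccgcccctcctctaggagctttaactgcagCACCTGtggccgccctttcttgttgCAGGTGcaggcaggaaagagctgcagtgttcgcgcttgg
Cldn7: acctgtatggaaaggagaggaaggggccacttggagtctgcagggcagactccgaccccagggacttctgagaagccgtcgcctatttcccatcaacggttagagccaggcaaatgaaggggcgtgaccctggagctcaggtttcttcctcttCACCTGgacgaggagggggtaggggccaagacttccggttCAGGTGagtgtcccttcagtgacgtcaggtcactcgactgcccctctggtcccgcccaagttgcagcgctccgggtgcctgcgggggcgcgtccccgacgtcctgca
F11r: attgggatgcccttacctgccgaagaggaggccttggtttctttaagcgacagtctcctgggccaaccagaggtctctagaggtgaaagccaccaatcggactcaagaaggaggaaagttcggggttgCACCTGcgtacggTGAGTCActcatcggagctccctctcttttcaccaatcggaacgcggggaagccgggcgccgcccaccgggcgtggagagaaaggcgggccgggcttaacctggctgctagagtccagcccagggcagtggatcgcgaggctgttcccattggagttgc
The Cldn4 window held 2 AP-1 cores, at -240 and -158 relative to the start, and 2 E-boxes. The F11r window held 1 AP-1 core and 1 E-box, the Cldn7 window 2 E-boxes and the Cldn3 window 1 E-box, and none of these matches overlapped another. Another annotated start of Cldn7 had neither motif in its window. Of all 32851 promoter windows, 5.20% held the AP-1 core and 20.2% the E-box. Also searched on both strands were AACCGGTT, a repeat bound by grainyhead-like factors (0.146% of all windows), the STAT palindrome TTCCNGGAA (1.15%) and the NF-kB motif (0.411%), whose letters were in 0 of the 38 windows of junction genes. Among the 38 windows of junction genes the AP-1 core was found in 3, those of Cldn4, F11r and Cldn15, and the E-box in 18, which belong to 14 genes. Those 14 include Dsp, Gjb1, Marveld2 and Tjp3, for which no difference passed the tests below with scaled values. The windows of Cldn2, higher in WT FAEE-SAP, and of Cldn10, lower there, held neither motif. Windows of different starts of 1 gene can overlap, as those of Crb3 do. Cldn3 and Cldn4 are also neighbours, with 39.3 kb between the genes, as are Ocln and Marveld2, 43.2 kb apart on chromosome 13, and Cdh1 and Cdh3, 46.1 kb apart on chromosome 8.

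The deposited values are read counts normalised to the exon length of the gene and to the mapped reads of the library (RPKM). Because a few digestive enzyme genes held 59.9 to 63.7% of the summed RPKM in saline libraries (the 10 highest genes of each) and 49.4 to 51.2% in WT FAEE-SAP, every library was divided by a median-of-ratios factor, from 0.621 in cKO saline to 2.02 in WT FAEE-SAP, and values below are scaled RPKM. Steps between low values put the depth at about 22.8 to 37.6 M reads per library. Genes with at least 0.5 RPKM as deposited, before scaling, in at least 2 libraries were tested, 11133 in all and 31 of the 35 junction genes. Because the WT FAEE-SAP factors were the largest, low genes passed this filter more easily through that group. Differences are log2 fold changes with their standard error (SE) from limma, and a gene was called when its Benjamini-Hochberg adjusted p over all tested genes was under 0.05 and its change at least 2-fold. Pfkfb3 itself read 1.70 and 1.69 in WT saline, 1.85 and 3.21 in WT FAEE-SAP, 0.880 and 2.10 in cKO saline and 1.74 and 2.82 in cKO FAEE-SAP. Genotypes overlapped under both treatments, but only 2 exons are removed in the cKO, so a value for the whole gene does not check the deletion and genotypes are those of the labels. Library 1 of cKO saline stood apart: the summed level of 5 enterocyte markers was 15.3 there and at most 0.269 elsewhere, that of 5 gastric markers 7.59 against at most 0.504, with Gkn1, Gkn2 and Tff1 at 0 in all libraries, and that of 4 red blood cell genes 238 against at most 119.

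All 10 acinar markers were detected in every library, and they moved with treatment. Their summed level was 174526 to 204311 in WT saline, 52173 to 53898 in WT FAEE-SAP, 235385 to 237638 in cKO saline and 136854 to 154511 in cKO FAEE-SAP. In these bulk samples fewer cells of a type and less RNA per cell cannot be told apart. The 8 duct markers summed to 45.9 to 49.6 in WT saline, 70.3 to 72.8 in WT FAEE-SAP, 33.2 to 54.5 in cKO saline and 69.6 to 70.1 in cKO FAEE-SAP, and none of the 7 tested was called in any comparison. Spp1 alone gave 34.2 to 45.9 of the sum in the FAEE-SAP libraries. In WT the changes of 5 of the 7 tested duct markers with FAEE-SAP were negative, with a median of -0.42. The 10 leukocyte markers summed to 21.0 to 45.1 in the saline libraries of both genotypes, 72.1 to 84.9 in WT FAEE-SAP and 32.1 to 60.3 in cKO FAEE-SAP. In WT the 2 called of the 10 were S100a8 and S100a9, genes of neutrophils, at 0.139 to 0.971 in WT saline and 15.8 to 33.1 in WT FAEE-SAP, while the median change of the 10 was 0.07 and 4 had negative values. The part of these shifts in the junction results was not tested.

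**Figure D1:**
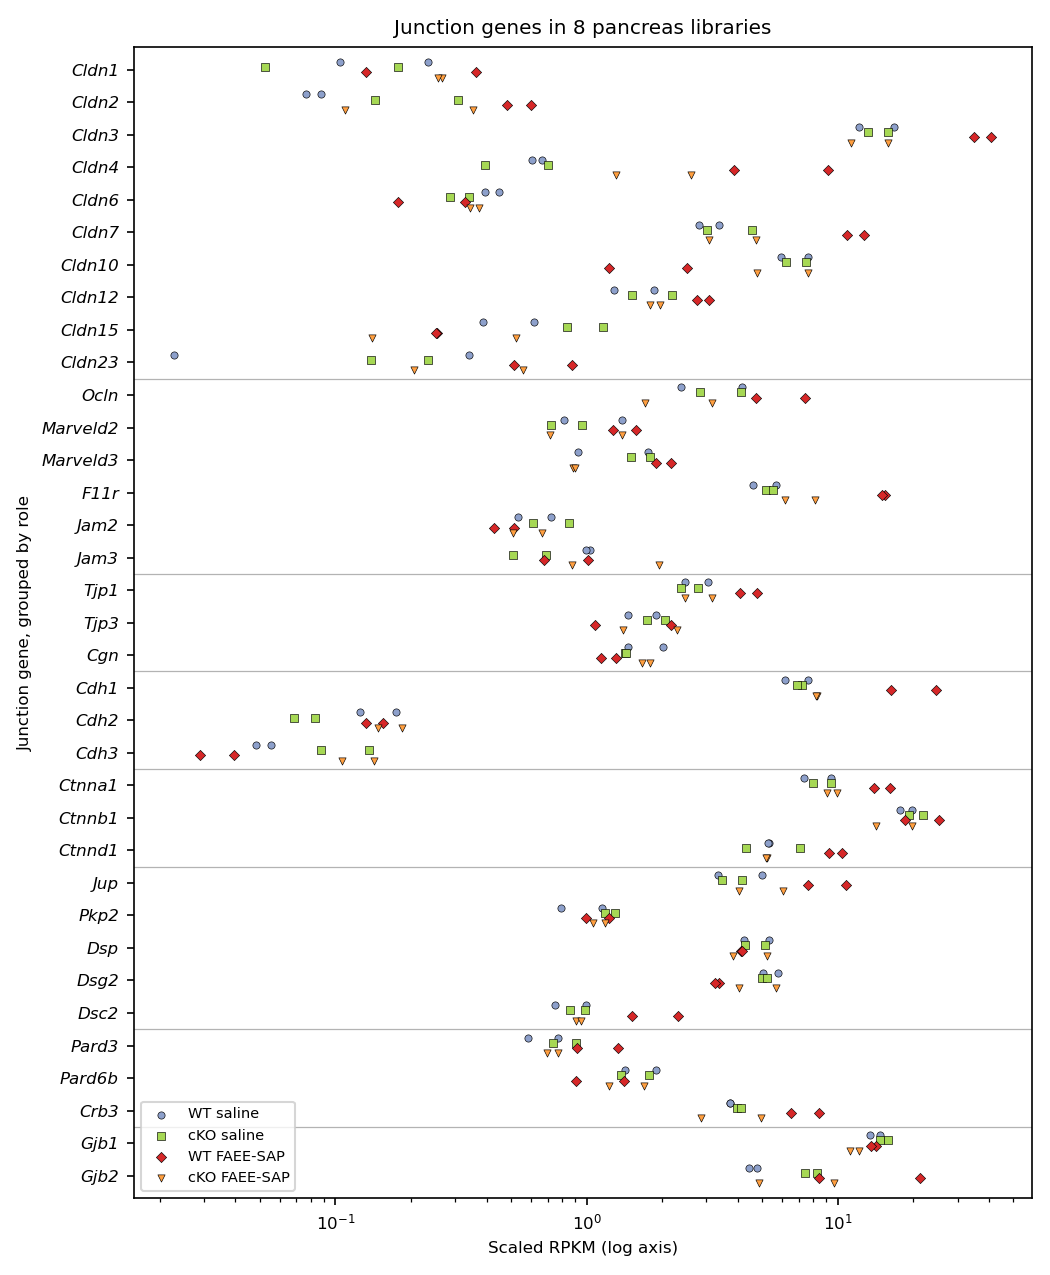
Scaled RPKM (log axis) of the 35 junction genes in each of the 8 libraries, 1 point per library, with grey lines between roles. The WT FAEE-SAP points of Cldn3, Cldn4, Cldn7, F11r and Cdh1 lie to the right of all 6 other points, and those of Cldn10 to the left.

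In WT mice, FAEE-SAP was accompanied by higher levels of several junction genes. Of the 31 tested, 7 were called higher in WT FAEE-SAP than in WT saline (Cldn2, Cldn3, Cldn4, Cldn7, F11r, Cdh1 and Dsc2), where 3.36% of all tested genes were. Cldn2 was tested only because of its values in WT FAEE-SAP, the group where it was high, so its call carries no weight of its own. Cldn10 was the 1 junction gene called lower, where 4.12% of all genes were. The median change of the 31 was 0.67 on the log2 scale, beside 0.01 for all tested genes, and 18 of the 31 had both WT FAEE-SAP libraries above both WT saline libraries (29.1% of all genes) while 7 had both below (29.4%). Both the median and the 18 include Cldn2 and Cldn23, which were tested only because of WT FAEE-SAP.

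Among the claudins, Cldn3, Cldn4, Cldn7 and Cldn10 passed the filter through several groups and were called. Cldn4, which forms barriers in ductal and other epithelia, stood at 0.666 and 0.605 in WT saline, 3.86 and 9.18 in WT FAEE-SAP, 0.705 and 0.396 in cKO saline and 1.32 and 2.61 in cKO FAEE-SAP. All 4 saline libraries were below all 4 FAEE-SAP libraries, and the WT FAEE-SAP libraries were the highest although they differed from each other. Its change in WT was 3.04 ± 0.473 (SE), an 8.24-fold difference (adjusted p = 0.0118), and it was 3.65 without WT FAEE-SAP library 1 and 2.42, no longer called, without library 2. Cldn3, another sealing claudin and the most abundant claudin here, read 16.8 and 12.2 in WT saline, 34.9 and 40.8 in WT FAEE-SAP, 13.2 and 15.9 in cKO saline and 11.3 and 15.9 in cKO FAEE-SAP. Only the WT FAEE-SAP libraries left the range of the other 6, and the change in WT was 1.39 ± 0.240 (adjusted p = 0.0161). Cldn7, found along the lateral membrane of many epithelia, read 3.38 and 2.80 in WT saline, 12.7 and 10.9 in WT FAEE-SAP, 3.02 and 4.57 in cKO saline and 3.07 and 4.75 in cKO FAEE-SAP. Its pattern had the same shape, with WT FAEE-SAP apart and the remaining groups overlapping, and the change in WT was 1.90 ± 0.280 (adjusted p = 0.00942).

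Of the channel-forming claudins, Cldn2, which lets cations and water pass between cells, was scarce, at 0.0873 and 0.0762 in WT saline, 0.603 and 0.484 in WT FAEE-SAP, 0.308 and 0.144 in cKO saline and 0.354 and 0.110 in cKO FAEE-SAP. The WT saline libraries were the lowest and rested on about 6 reads each, against about 92.6 and 101 in WT FAEE-SAP, and the fitted change in WT was 1.82 ± 0.446 (adjusted p = 0.0451). It passed the filter only through WT FAEE-SAP, at 1.22 and 0.937 RPKM as deposited against 0.0636 to 0.371 in the other 6 libraries, and it was not called with no filter, with a pseudocount of 1 or with one of 0.01. Cldn10, whose isoforms form anion or cation channels, was called lower, at 7.60 and 5.94 in WT saline, 2.50 and 1.23 in WT FAEE-SAP, 6.24 and 7.49 in cKO saline and 4.76 and 7.59 in cKO FAEE-SAP. Both WT FAEE-SAP libraries lay below the remaining 6, a change of -1.87 ± 0.359 in WT (adjusted p = 0.0230). Cldn15, a cation channel of the intestine, read 0.387 and 0.617 in WT saline, 0.254 and 0.253 in WT FAEE-SAP, 1.16 and 0.834 in cKO saline and 0.522 and 0.140 in cKO FAEE-SAP. It passed no test, and its highest value was in cKO saline library 1, where the enterocyte markers were high, but library 2 of that group, without those markers, was the next highest, and the part of gut RNA in these values was not tested.

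The remaining claudins were not called. Cldn12, a claudin without the usual PDZ-binding end, read 1.85 and 1.29 in WT saline, 3.08 and 2.75 in WT FAEE-SAP, 2.20 and 1.52 in cKO saline and 1.96 and 1.80 in cKO FAEE-SAP. The WT FAEE-SAP libraries were again the highest, with a change in WT of 0.87 ± 0.246 (adjusted p = 0.0659). Cldn23 ranged from 0.0229 to 0.879, both ends in WT libraries, and its WT change of 1.74 carried an SE of 0.650 (adjusted p = 0.130). Without WT FAEE-SAP, where it was high, Cldn23 would not have passed the filter. Cldn1, a sealing claudin of skin and other barriers, ranged from 0.0526 to 0.364, and Cldn6, a claudin of embryonic epithelia, from 0.178 to 0.450. Neither passed the filter on low values, so neither was tested.

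Among the other tight junction membrane proteins, F11r was called and its relatives were not. F11r encodes JAM-A, an immunoglobulin-like adhesion molecule of epithelial and endothelial tight junctions and of leukocytes and platelets, and read 5.71 and 4.58 in WT saline, 15.5 and 15.0 in WT FAEE-SAP, 5.17 and 5.50 in cKO saline and 6.19 and 8.09 in cKO FAEE-SAP. The 4 saline libraries were close together, the cKO FAEE-SAP libraries slightly above them and the WT FAEE-SAP libraries far above, a change in WT of 1.56 ± 0.193, or 2.94-fold (adjusted p = 0.00547). The endothelial markers summed to 14.3 to 15.5 in WT FAEE-SAP and 14.7 to 17.5 in WT saline, whereas the leukocyte markers summed to 72.1 to 84.9 and 21.0 to 45.1, with S100a8 and S100a9 the 2 called, and their part in the F11r value was not tested. Ocln, occludin, read 4.17 and 2.38 in WT saline, 4.72 and 7.44 in WT FAEE-SAP, 2.84 and 4.11 in cKO saline and 1.71 and 3.16 in cKO FAEE-SAP, a change in WT of 0.89 ± 0.401 (adjusted p = 0.191). Marveld3, a relative of occludin, read 1.75 and 0.926 in WT saline, 1.90 and 2.18 in WT FAEE-SAP, 1.51 and 1.79 in cKO saline and 0.886 and 0.898 in cKO FAEE-SAP. For both genes the 2 highest libraries were those of WT FAEE-SAP and the lowest was one of cKO FAEE-SAP. Marveld2, tricellulin, which seals the points where 3 cells meet, stayed between 0.717 and 1.57 with overlapping groups. Jam2 ranged from 0.429 to 0.850, and Jam3 from 0.509 to 1.95 with its highest value in cKO FAEE-SAP library 1. Of the Jam3 exon length, 36.2% is shared with a gene on the opposite strand, so its value is uncertain where reads were counted without strand.

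None of the 3 plaque protein genes was called. Tjp1, ZO-1, read 3.04 and 2.48 in WT saline, 4.09 and 4.78 in WT FAEE-SAP, 2.37 and 2.79 in cKO saline and 2.46 and 3.15 in cKO FAEE-SAP, a change in WT of 0.67 ± 0.207 (adjusted p = 0.0819). Its WT FAEE-SAP libraries were the highest of the 8. Tjp3, ZO-3, ranged from 1.09 to 2.29 with both WT FAEE-SAP libraries inside or below the range of the others, a change of -0.11 ± 0.355 in WT. Cgn, cingulin, a link between tight junctions and myosin, read 2.01 and 1.46 in WT saline and 1.31 and 1.14 in WT FAEE-SAP, a change of -0.46 ± 0.202 (adjusted p = 0.182).

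In adherens junctions, 1 classical cadherin was abundant enough to be tested, and it was called. Cdh1, E-cadherin, the adhesion molecule of epithelia, read 7.61 and 6.17 in WT saline, 16.3 and 24.6 in WT FAEE-SAP, 7.20 and 6.89 in cKO saline and 8.26 and 8.20 in cKO FAEE-SAP. Both WT FAEE-SAP libraries were far above the other 6, a change in WT of 1.53 ± 0.224, or 2.89-fold (adjusted p = 0.00935). Cdh2, N-cadherin, ranged from 0.0688 to 0.185 and Cdh3, P-cadherin, from 0.0288 to 0.142, and neither was tested. None of the catenins, which bind the cadherin tail, was called. Ctnna1, alpha-catenin, read 9.42 and 7.37 in WT saline, 14.0 and 16.1 in WT FAEE-SAP, 7.98 and 9.43 in cKO saline and 9.10 and 9.91 in cKO FAEE-SAP. Its change in WT of 0.84 ± 0.188 had an adjusted p of 0.0353 but was under 2-fold, so it was not called. Ctnnd1, p120-catenin, which keeps cadherins at the membrane, read 5.34 and 5.29 in WT saline and 10.4 and 9.22 in WT FAEE-SAP, a change of 0.87 ± 0.237 (adjusted p = 0.0603), and 61.2% of its exon length is shared with the gene model Gm28635 on the same strand. Ctnnb1, beta-catenin, which also acts in Wnt signalling, was among the most abundant junction genes, from 14.2 to 25.4, and its groups overlapped.

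Among the 5 desmosome genes, only Dsc2 was called in WT, higher with FAEE-SAP. Dsc2, the cadherin desmocollin 2, read 1.0 and 0.753 in WT saline and 1.51 and 2.32 in WT FAEE-SAP. It read 0.857 and 0.989 in cKO saline and 0.905 and 0.949 in cKO FAEE-SAP. The WT FAEE-SAP libraries were above all others, with a change in WT of 1.03 ± 0.249 (adjusted p = 0.0439). Dsg2, the cadherin desmoglein 2, read 5.77 and 5.05 in WT saline, 3.38 and 3.26 in WT FAEE-SAP, 5.01 and 5.21 in cKO saline and 4.03 and 5.70 in cKO FAEE-SAP, with WT FAEE-SAP the lowest and a change of -0.69 ± 0.201 (adjusted p = 0.0724). The signs of these changes in the 2 desmosomal cadherins thus differed, although the latter was not called. Jup, plakoglobin, found in both desmosomes and adherens junctions, read 4.99 and 3.33 in WT saline, 7.59 and 10.8 in WT FAEE-SAP, 3.46 and 4.16 in cKO saline and 4.06 and 6.07 in cKO FAEE-SAP, a change of 1.13 ± 0.295 (adjusted p = 0.0542). Dsp, desmoplakin, the link to keratin, ranged from 3.84 to 5.31 and Pkp2, plakophilin 2, from 0.788 to 1.30, with changes in WT of -0.19 ± 0.213 and 0.19 ± 0.227.

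Of the polarity genes, Crb3, which marks the apical membrane, read 3.71 and 3.73 in WT saline, 6.51 and 8.45 in WT FAEE-SAP, 3.98 and 4.13 in cKO saline and 2.86 and 4.94 in cKO FAEE-SAP, a change in WT of 0.98 ± 0.267 (adjusted p = 0.0601). Again the WT FAEE-SAP libraries were the highest. Pard3, which encodes a scaffold that places tight junctions, ranged from 0.585 to 1.33 with a change of 0.65 ± 0.246 (adjusted p = 0.136), and Pard6b, its partner, from 0.906 to 1.89 with a change of -0.50 ± 0.283 (adjusted p = 0.294). The connexins differed in spread. Gjb1, connexin 32, stayed between 11.2 and 15.8 in all 8 libraries and changed by -0.02 ± 0.149 in WT, with a 95% interval from -0.37 to 0.33. Gjb2, connexin 26, read 4.45 and 4.78 in WT saline, 8.41 and 21.2 in WT FAEE-SAP, 8.24 and 7.42 in cKO saline and 9.64 and 4.86 in cKO FAEE-SAP. The WT FAEE-SAP libraries were the most apart of any group for this gene, and the change of 1.52 ± 0.456 was not called (adjusted p = 0.0759).

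Over all genes the calls in WT rested on few libraries, and those of the junction genes fell with them. Over the 8 fits that left out a library, the changes ran from 1.16 to 1.62 for Cldn3, 2.42 to 3.65 for Cldn4 and 1.77 to 2.04 for Cldn7. They ran from 1.40 to 1.71 for F11r, 1.25 to 1.84 for Cdh1, 0.74 to 1.33 for Dsc2 and -2.34 to -1.37 for Cldn10. Without WT saline library 1 or without library 2, 1 junction gene was called in each case, F11r (1.55% and 2.67% of all genes, against 7.48% with all libraries), and without WT FAEE-SAP library 2, F11r and Cdh1 were (1.79%), in fits that assume the lone library of a group varies like the other groups. F11r was called in all 8 fits that left out a library, while Dsc2 was called in 1 of them.

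**Figure D2:**
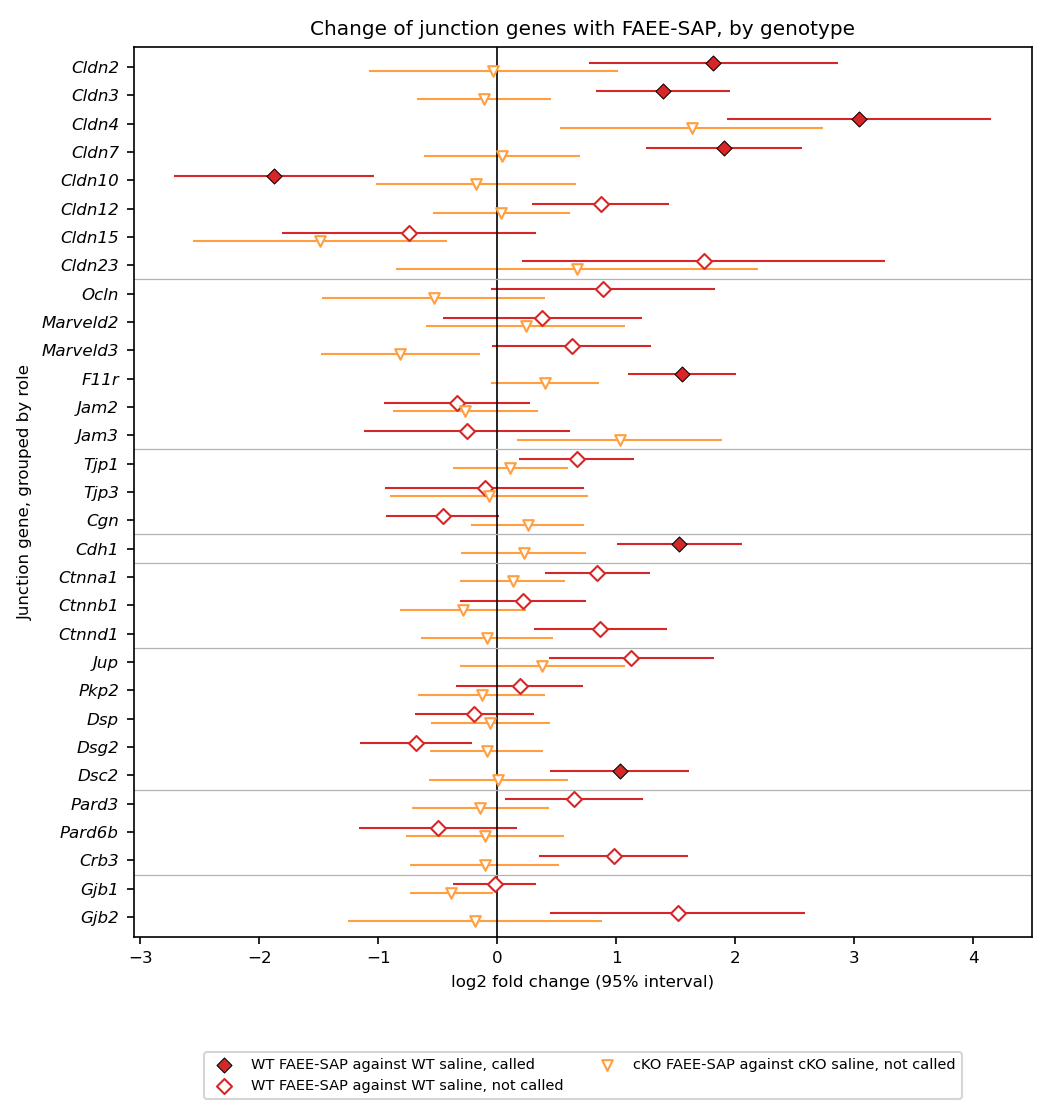
Log2 fold change between FAEE-SAP and saline of the 31 tested junction genes in WT (diamonds) and cKO (triangles), with 95% intervals, filled where called. The filled points are the 7 WT genes called higher and Cldn10, called lower, and no cKO point is filled.

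In cKO mice, none of the 31 junction genes was called between FAEE-SAP and saline, where 0.135% of all tested genes were. The median change was -0.07, beside -0.02 for all genes, and 5 of the 31 had an unadjusted p under 0.05 (10.9% of all genes): Cldn4, Cldn15, Marveld3, Jam3 and Gjb1. Cldn4 gave the largest value, 1.63 ± 0.473 (adjusted p = 0.308), with all FAEE-SAP libraries above all saline libraries. Cdh1, at 7.20 and 6.89 in saline and 8.26 and 8.20 with FAEE-SAP, did not overlap between groups but was not called. Its change was 0.22, with a 95% interval from -0.30 to 0.75. In 5 of the 31 both cKO FAEE-SAP libraries were above both cKO saline libraries, beside 20.2% of all genes. The interval of Cldn3 ran from -0.67 to 0.45, that of Cldn7 from -0.62 to 0.69, that of F11r from -0.05 to 0.85 and that of Cldn10 from -1.02 to 0.66. Marveld3 had a negative value, -0.81 ± 0.285, and Jam3 a positive one, 1.03 ± 0.369, and neither passed the adjusted threshold (adjusted p = 0.372 and 0.384). For Cldn15, at -1.49 ± 0.455, saline library 1 with its enterocyte markers was the highest of the 4 libraries. Without that library the median change of the 31 was -0.08, beside -0.02 for all genes, and the part of gut RNA was not tested.

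Between genotypes after saline, no junction gene was called and no gene of all 11133 was (0%). None of the 31 had an unadjusted p under 0.05 either, where 2.63% of all genes had. Cldn15 had the largest difference, 0.88 ± 0.455 higher in cKO, followed by Cldn2 at 0.80 ± 0.446 and Gjb2 at 0.75 ± 0.456. Cldn2, Cldn15 and Gjb2 were each highest among the saline libraries in cKO library 1, which held gut markers, and next highest in cKO library 2. Other junction genes, such as Cldn12 and Ctnnb1, were also highest in cKO library 1 among the saline libraries. The part of gut RNA in these values was not tested. The median difference of the 31 was 0.08, and for Cdh1 the 95% interval ran from -0.49 to 0.56.

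After FAEE-SAP, 4 junction genes were called lower in cKO than in WT: Cldn3, Cldn7, F11r and Cdh1, where 0.988% of all tested genes were called lower. None was called higher, where 1.66% of all genes were. Cldn3 was lower by 2.81-fold, -1.49 ± 0.240 (adjusted p = 0.0288), and Cldn7 by 3.03-fold, -1.60 ± 0.280 (adjusted p = 0.0364). F11r was lower by 2.14-fold, -1.09 ± 0.193 (adjusted p = 0.0371), and Cdh1 by 2.41-fold, -1.27 ± 0.224 (adjusted p = 0.0371). In each of the 4, both cKO FAEE-SAP libraries lay below both WT FAEE-SAP libraries. Those WT FAEE-SAP libraries also enter the treatment comparison in WT, so the 2 comparisons are not separate evidence. Over the 31 genes, 17 had both cKO libraries below both WT libraries (25.1% of all genes) and 3 had both above (26.8%). The median difference was -0.65, beside 0.01 for all genes. The 17 include Cldn2, and the median includes Cldn2 and Cldn23, which were tested only because of WT FAEE-SAP.

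The genes that missed the call after FAEE-SAP included the largest differences. Cldn4 differed by -1.63 ± 0.473 (adjusted p = 0.109), with WT libraries at 3.86 and 9.18 that were themselves far apart. Cldn10 was 1.72 ± 0.359 higher in cKO (adjusted p = 0.0553), the opposite direction. Ocln differed by -1.31 ± 0.401 (adjusted p = 0.116) and Marveld3 by -1.10 ± 0.285 (adjusted p = 0.0861). Dsc2 at -0.94 ± 0.249, Ctnnd1 at -0.90 ± 0.237 and Crb3 at -0.96 ± 0.267 had adjusted p from 0.0882 to 0.0994. Gjb1, Dsp, Pkp2, Tjp3 and Cldn15 had differences between -0.25 and 0.21 in this comparison.

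These 4 calls also rested on few libraries, as did those over all genes, of which 2.65% were called in either direction. Over the 8 fits that left out a library, the difference ran from -1.74 to -1.23 for Cldn3 and from -1.91 to -1.28 for Cldn7. It ran from -1.29 to -0.89 for F11r and from -1.57 to -0.97 for Cdh1. In a fit of only the 4 FAEE-SAP libraries none of the 31 genes was called (1.27% of all genes), and none was without WT FAEE-SAP library 2 (0.239%) or without cKO FAEE-SAP library 1 (0.445%) or 2 (0.0811%), shares at which few of 31 genes could be called. Without WT FAEE-SAP library 1, Cdh1 was called lower and Cldn10 higher (2.12% of all genes). Leaving out a saline library, which is not part of the comparison, left Cldn3 (either WT saline library, 0.999% and 1.04% of all genes) or Cldn3 and Cldn7 (either cKO saline library, 2.24% and 2.26%), so that F11r was called in 0 of the 8 fits that left out a library, Cdh1 in 1, Cldn7 in 2 and Cldn3 in 4. With no filter on low values none was called (0.314% of all genes), and with the replicate number as a block 1 was, Cldn3 (1.72%). Beside these genes, 7 of the 10 acinar markers were called higher in cKO than in WT after FAEE-SAP, 4 of the 7 tested islet markers were called higher, and 1 of the 10 leukocyte markers was called lower.

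**Figure D3:**
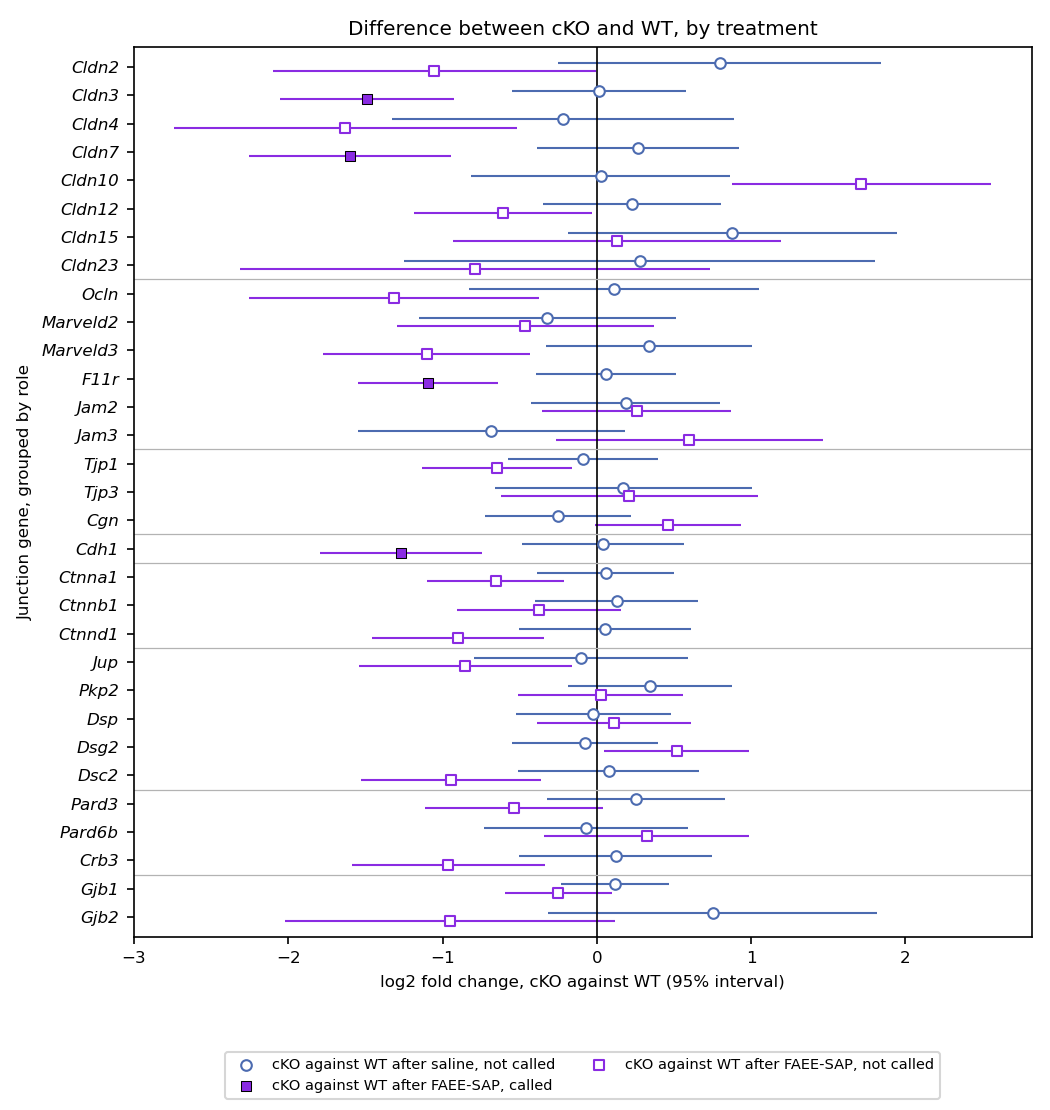
Log2 difference between cKO and WT of the 31 tested junction genes after saline (circles) and after FAEE-SAP (squares), with 95% intervals, filled where called. Filled squares are Cldn3, Cldn7, F11r and Cdh1, all lower in cKO after FAEE-SAP, and no circle is filled.

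Whether the response to FAEE-SAP itself differed between genotypes was tested as the difference between the 2 treatment changes. No junction gene was called, where 0.0719% of all genes were, so a call in WT and its absence in cKO does not show that the genotypes respond differently. At an unadjusted p under 0.05 stood 16 of the 31, beside 12.6% of all genes. The median over the 31 was -0.75, beside 0.02 for all genes. The 16 include Cldn2, and the median includes Cldn2 and Cldn23, which were tested only because of WT FAEE-SAP. Cldn7 had the smallest p among the 31, with a difference of -1.87 ± 0.395 (adjusted p = 0.177). It was followed by Cldn3 at -1.50 ± 0.339 (adjusted p = 0.197), F11r at -1.15 ± 0.273 (adjusted p = 0.210) and Cdh1 at -1.31 ± 0.317 (adjusted p = 0.217). Positive values were given by 8 of the 31, of which Cldn10 at 1.69 ± 0.507, Cgn at 0.71 ± 0.285 and Jam3 at 1.28 ± 0.522 had an unadjusted p under 0.05 (adjusted p from 0.280 to 0.380).

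The counts depended on the scaling. With RPKM as deposited, the median of all tested genes in WT shifted by 1.23 on the log2 scale, 24 junction genes were called higher and none lower in WT FAEE-SAP, and 64% of all genes were called higher. Relative to that median, the junction genes stood 0.72 higher, against 0.65 with scaling. After FAEE-SAP, 21 junction genes were called lower in cKO with the values as deposited, where 39.3% of all genes were and the median of all genes was -0.90. Relative to it the junction genes stood -0.70, against -0.66 with scaling. With trimmed means or quantiles in place of median-of-ratios, 8 genes were called higher in WT, the 7 above and Jup (3.75% and 3.35% of all genes), and Cldn10 lower (3.79% and 3.97%). With quantiles, Cldn10 was also called higher in cKO than in WT after FAEE-SAP (1.59% of all genes).

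**Figure D4:**
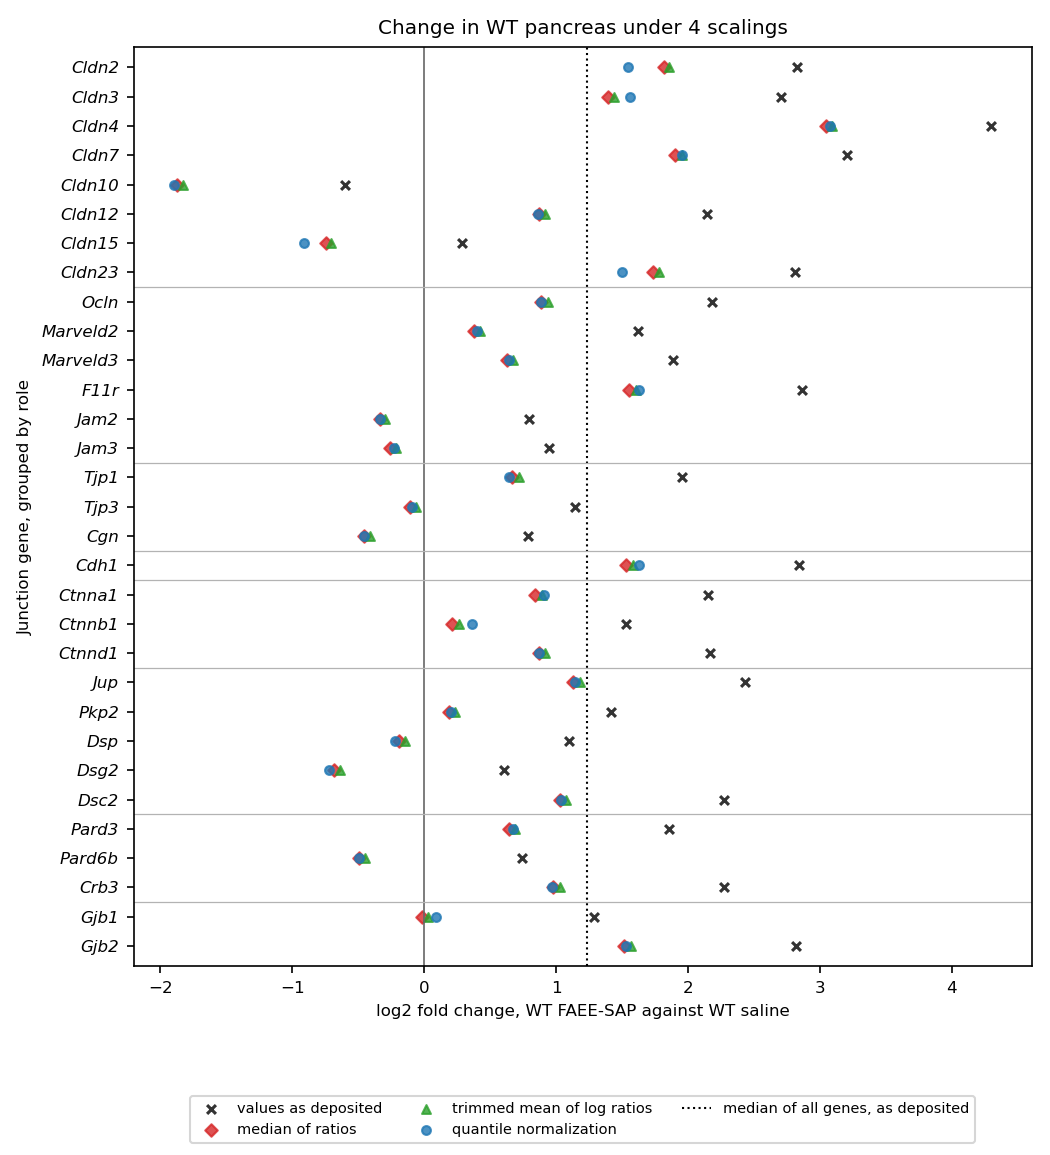
Log2 fold change between WT FAEE-SAP and WT saline of the 31 tested junction genes under 4 scalings. Crosses (values as deposited) lie to the right of the 3 scaled values for every gene, shifted with the median of all genes, 1.23 (dotted line).

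Other genes of the same pathways were described from a written list of 96, of which 95 were found and 43 tested. In WT, 5 of the 43 were called higher with FAEE-SAP (3.36% of all genes) and 1 lower (4.12%), and the median change was 0.27. In cKO, after saline and for the difference of responses none was called, with 5, 1 and 11 at an unadjusted p under 0.05, where 10.9%, 2.63% and 12.6% of all genes were. After FAEE-SAP, 1 was called higher in cKO (1.66% of all genes) and 2 lower (0.988%). Epcam, an epithelial adhesion molecule that binds claudin 7, read 5.55 and 5.03 in WT saline, 24.4 and 23.6 in WT FAEE-SAP, 5.27 and 5.94 in cKO saline and 7.96 and 12.9 in cKO FAEE-SAP. The FAEE-SAP libraries were all above the saline libraries, WT by far, with a change in WT of 2.16 ± 0.236 (adjusted p = 0.00354) and a difference between genotypes after FAEE-SAP of -1.24 ± 0.236 (adjusted p = 0.0428). Cxadr, the coxsackievirus and adenovirus receptor, also a tight junction protein, read 2.04 and 2.24 in WT saline, 5.67 and 7.50 in WT FAEE-SAP, 2.31 and 1.43 in cKO saline and 2.37 and 1.49 in cKO FAEE-SAP. It was higher in WT with FAEE-SAP, 1.57 ± 0.303 (adjusted p = 0.0237), and lower in cKO than in WT after it, -1.74 ± 0.303 (adjusted p = 0.0358).

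Cldn8, a barrier claudin of the kidney and other epithelia, had its lowest values in the same group as Cldn10. It read 4.46 and 4.73 in WT saline, 1.14 and 0.576 in WT FAEE-SAP, 4.64 and 2.72 in cKO saline and 4.72 and 3.14 in cKO FAEE-SAP. Groups other than WT FAEE-SAP overlapped each other, with a change in WT of -2.36 ± 0.370 (adjusted p = 0.0121) and a difference of 2.11 ± 0.370 higher in cKO after FAEE-SAP (adjusted p = 0.0366).

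Of 15 transcription factors known to keep or loosen the epithelial state, 11 were tested and 2 were called in WT, both higher with FAEE-SAP (3.36% of all genes), and for 1 of them, Snai1, the filter favoured the call. Elf3, an epithelial ETS factor, read 1.0 and 0.762 in WT saline, 4.41 and 4.23 in WT FAEE-SAP, 1.0 and 1.23 in cKO saline and 1.72 and 2.12 in cKO FAEE-SAP. All FAEE-SAP libraries exceeded all saline libraries, with a change in WT of 2.18 ± 0.210 (adjusted p = 0.00209) and a difference between genotypes after FAEE-SAP of -1.14 ± 0.210 (adjusted p = 0.0405). Snai1, which binds E-boxes and is known as a repressor of Cdh1, read 0.149 and 0.182 in WT saline, 0.797 and 0.516 in WT FAEE-SAP, 0.184 and 0.266 in cKO saline and 0.384 and 0.429 in cKO FAEE-SAP. Its fitted change in WT was 1.49 ± 0.295 (adjusted p = 0.0258), but it too passed the filter only through WT FAEE-SAP, at 1.61 and 0.998 RPKM as deposited against at most 0.419 elsewhere. The median change of the 11 in WT was 0.04, and none was called in cKO, after saline or for the difference of responses, with 2, 0 and 1 at an unadjusted p under 0.05 (10.9%, 2.63% and 12.6% of all genes).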

How the data were processed

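Pancreas RNA was sequenced as 8 directional libraries (4 groups of 2). Per the paper's methods and the submitters' processing notes, the authors trimmed reads with fastp and mapped and quantified them in CLC Genomics Workbench against GRCm38.p6, and deposited 1 RPKM value per gene and library. Strand use in counting and the handling of reads with several matches are not given in the sources used here. Of low values, 84.5 to 85.9% were whole reads within 0.1, so counts were not recovered, and precision rests on 2 libraries per group.

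RPKM were divided by median-of-ratios factors, and log2(scaled RPKM + 0.1) was fitted with limma 3.58.1 (R 4.3.3, intensity trend, 4 group means, 4 residual degrees of freedom) and checked on simulated data. The pseudocount understates changes of low genes. An exact permutation test of 2 against 2 libraries cannot give a p under 0.33. Groups came from the labels. The junction genes and the other lists were chosen with earlier results of these data known. All 35 genes are named, with up to 5 called genes per comparison and direction from the other lists, by size of change, except 1 that is not reported here. Alternatives covered scaling, filter, pseudocount, trend, threshold, libraries fitted and replicate block.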

Additional observations from a re-analysis of the deposited data

How the results depend on the processing

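With values as deposited, 24 junction genes were called in WT with FAEE-SAP (64.7% of all genes), 4 in cKO (6.69%), 21 between genotypes after FAEE-SAP (40.0%) and 12 for the difference of responses (7.11%). Tjp3, Dsp and Gjb1, near 0 or below with scaling, were then called higher in WT, at 1.14, 1.10 and 1.29. With no filter on low values, 5 were called in WT (2.66% of all genes) and 0 between genotypes after FAEE-SAP (0.314%), where a fit of the 4 libraries alone also gave 0 (1.27%). With an unadjusted p, the counts were 11 in WT (11.4% of all genes), 3 in cKO (3.29%), 9 between genotypes after FAEE-SAP (7.87%) and 12 for the difference of responses (7.02%). Leaving out 1 library gave 1 to 8 calls in WT (1.55 to 7.35% of all genes), 0 to 2 between genotypes after FAEE-SAP (0.0811 to 2.26%) and 0 in the other comparisons.

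Labels number the replicates 1 and 2 in every group. Nothing says that a number marks a shared cage, litter or day, so the numbers were not taken as pairs. Deviations of same-numbered libraries across 11133 genes correlated from -0.522 to -0.175 between WT saline and each other group. Among the other groups the correlations ran from 0.184 to 0.399. Whether libraries shared a batch is not given and was not tested. With the replicate number as a block, 7 junction genes were called in WT (6.46% of all genes) and 1, Cldn3, between genotypes after FAEE-SAP (1.72%). With the WT saline numbers exchanged in the block, chosen after seeing the data, the counts were 10 (10.7% of all genes), 7 (6.56%) and, for the difference of responses, 1 (0.611%).

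The remaining alternatives kept the count of each comparison within 1.5 times the value given. Depth limits Cldn2, Cldn23 and the 4 genes that were not tested (Cldn1, Cldn6, Cdh2 and Cdh3), all under 1 scaled RPKM in every library.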
